A study of Mus musculus with 12 samples.

Results

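The regions described here are stretches of the mouse genome that carried an H3K27me3 peak in both wild-type libraries of the second experiment of the study and in no wild-type library of the first. Overlapping peaks of the 2 wild-type lists of experiment 2 were joined, and autosomal regions that held peaks of both lists and overlapped no wild-type peak of experiment 1 by 1 bp were kept. There were 622 such regions among the 3936 autosomal regions of experiment 2 found in both lists, which is 15.8%. The other 3314 overlapped an experiment 1 wild-type peak and are called the shared regions. Regions joined from all 10 lists of the series numbered 199235. The 622 regions were chosen by the wild-type peaks of both experiments, so their presence in experiment 2 and absence from experiment 1 are a description and were not tested.

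All libraries came from 1 clone, C2, of iMEFs, which are mouse embryonic fibroblasts transformed with c-Myc. The clone carried a conditional Ezh2 allele over a deleted one, with a tamoxifen-activated Cre expressed from the ROSA26 locus, and 4-hydroxytamoxifen was used to delete Ezh2. The labels call the cells with Ezh2 "WT/WT" and the deleted cells "Ezh2 -/-", here wild type and knockout. Experiment 1 held 2 wild-type and 2 knockout libraries, read on a SOLiD instrument with 75-base reads after ChIP with an Active Motif antibody. Experiment 2 held 2 wild-type and 2 knockout libraries and 1 library each of an Ezh1 and an Ezh2 "pre-rescue condition", in which the methyltransferase was stably expressed before endogenous Ezh2 was deleted. These were read on an Illumina instrument with 100-base reads after ChIP with clone 7b11. Antibody, instrument, read length and experiment therefore changed together and cannot be told apart. The libraries of a condition are not stated to come from separate cultures, and each rescue has 1 library, so no p-value is given for any comparison of regions.

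H3K27me3 is the trimethylated form of lysine 27 of histone H3, laid down by the Polycomb complex PRC2. EZH2 and EZH1 are the alternative catalytic subunits of that complex. The mark is found at silent developmental genes and, at lower density, over broad intergenic domains. In fibroblasts it covers lineage genes of other tissues, the HOX clusters among them.

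Stretches of 200 bases from the middle of 6 of the regions are printed as examples of their sequence. A rescue named with a sequence is that of the whole region. At Plxdc1 the rescue peaks covered only part of each printed region and did not reach the printed windows. The first 4 are from the widest region of each class of rescue outcome whose window touched no annotated exon. The last 2, chosen after their values were seen, are from the widest region in which every 75-base word occurs more than once in the genome, and from the widest region of mostly repeated sequence that holds a CpG-rich window. All are on the plus strand of the NCBIM37 (mm9) reference, and capitals mark CpG dinucleotides, where DNA methylation occurs. The windows lie, in order, at chr11:97838601-97838800 and chr1:135643276-135643475, at chr11:97815676-97815875 and chr2:35135526-35135725, and at chr17:35589276-35589475 and chr8:126081801-126082000.
Plxdc1, both rescues: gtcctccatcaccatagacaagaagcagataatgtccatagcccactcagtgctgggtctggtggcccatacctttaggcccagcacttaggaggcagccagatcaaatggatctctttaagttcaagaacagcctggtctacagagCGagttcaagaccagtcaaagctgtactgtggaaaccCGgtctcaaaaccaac
Atp2b4, Ezh1 rescue only: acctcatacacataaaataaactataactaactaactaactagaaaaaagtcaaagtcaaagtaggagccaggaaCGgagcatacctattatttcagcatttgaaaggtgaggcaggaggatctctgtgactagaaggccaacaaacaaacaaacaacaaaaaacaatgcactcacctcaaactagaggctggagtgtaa
Plxdc1, Ezh2 rescue only: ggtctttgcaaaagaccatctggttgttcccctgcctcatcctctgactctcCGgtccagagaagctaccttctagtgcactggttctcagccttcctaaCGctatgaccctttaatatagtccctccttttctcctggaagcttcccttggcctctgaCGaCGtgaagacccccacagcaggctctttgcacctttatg
Gsn, neither rescue: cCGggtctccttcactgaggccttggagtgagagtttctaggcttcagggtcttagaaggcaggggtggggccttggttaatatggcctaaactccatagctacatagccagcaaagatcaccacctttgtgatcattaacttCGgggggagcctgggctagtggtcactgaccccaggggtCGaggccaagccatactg
near H2-Q7, repeated: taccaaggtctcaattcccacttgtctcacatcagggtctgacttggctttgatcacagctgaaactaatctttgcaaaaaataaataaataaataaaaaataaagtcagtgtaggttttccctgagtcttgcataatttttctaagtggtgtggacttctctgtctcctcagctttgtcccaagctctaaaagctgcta
Gm20388 array, repeated: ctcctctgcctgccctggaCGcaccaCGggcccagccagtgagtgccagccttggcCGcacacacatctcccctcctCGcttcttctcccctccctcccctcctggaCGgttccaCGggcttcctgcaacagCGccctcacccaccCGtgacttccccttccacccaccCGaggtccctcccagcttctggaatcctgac
The windows of the first 4 held between 1 and 4 CpG dinucleotides. The middle 100 bases of each of these 4 occurred once in the reference on either strand. Those of the window near H2-Q7, a gene of the class I major histocompatibility complex, occurred 2 times within 45.2 kb of chromosome 17. Those of the Gm20388 window occurred 45 times within 86.6 kb of chromosome 8, so that window lies in an array of copies.

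Most of the 622 regions carried a peak in at least 1 rescue, but less often than the shared regions did. An Ezh1 rescue peak overlapped 482 of the 622 (77.5%, 95% Wilson interval 74.0 to 80.6%), against 94.0% of all 3936 regions and 97.1% of the shared regions. An Ezh2 rescue peak overlapped 400 (64.3%, interval 60.5 to 68.0%), against 85.5% of all regions and 89.5% of the shared ones. Both rescues covered 352 regions (56.6%), where the figure was 82.9% over all regions. In the Ezh1 rescue alone there were 130 regions (20.9%, against 11.1% of all), and in the Ezh2 rescue alone 48 (7.72%, against 2.69%). No rescue peak was found over 92 regions (14.8%, against 3.33%). Intervals cover counting error only, neighbouring regions are not independent, and the difference between the 2 sets of regions was not tested. Requiring both wild-type lists mattered: the list of replicate 1 alone gave 4569 regions, 36.7% of them under an Ezh2 rescue peak and 30.7% under both rescues, and that of replicate 2 alone gave 3512, with 41.5% and 34.6%.

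**Figure D1:**
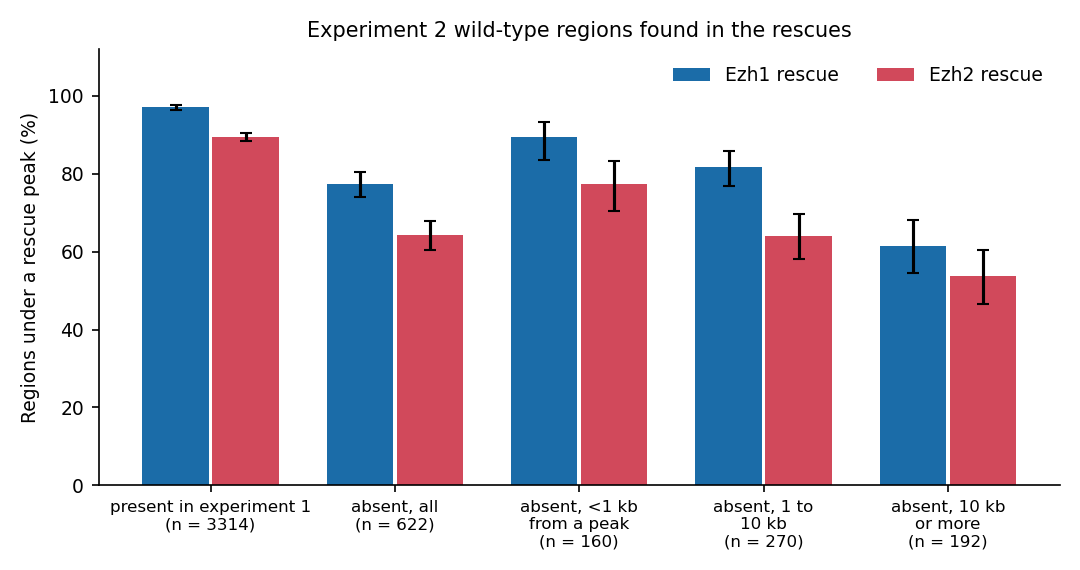
Share of experiment 2 wild-type regions that overlapped a peak of the Ezh1 rescue (blue) or the Ezh2 rescue (red), in percent, with 95% Wilson intervals. The shared regions are at 97.1% and 89.5%, all 622 absent regions at 77.5% and 64.3%, and those 10 kb or more from an experiment 1 wild-type peak at 61.5% and 53.6%.

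The rescue lists differ widely in extent. The authors also scaled the Ezh1 rescue reads, but not the Ezh2 rescue reads, by a coefficient for the amount of precipitated DNA. The part of either in these shares was not tested, and the extent of peaks is not a measure of the amount of the mark. By Western blot the paper found less H3K27me3 in the Ezh1 than in the Ezh2 rescue. It also describes the mark as weaker across the genome in the Ezh1 rescue. Ezh1 rescue peaks covered 256 Mb and Ezh2 rescue peaks 80.6 Mb, against 14.9 and 11.3 Mb in the 2 wild-type lists of experiment 2 and 141 and 177 Mb in those of experiment 1. The Ezh1 rescue peak over one of the 622 regions had a median width of 2675 bp, and over a shared region 14200 bp. For the Ezh2 rescue the medians were 1225 and 2400 bp. The regions lay wholly under Ezh1 rescue peaks in 61.9% of cases and wholly under Ezh2 rescue peaks in 36.3%, against 93.3% and 68.2% of the shared regions. For 180 of the 622 (28.9%) the Ezh1 rescue peak over the region also reached an experiment 1 wild-type peak.

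The 622 regions were slightly narrower than the shared ones, with a median of 1000 bp (interquartile range 800 to 1250) against 1100 bp. The widest was 4800 bp. Within width classes the lower rescue shares remained. Among regions under 1000 bp, 72.6% of 303 absent and 94.4% of 1033 shared regions had an Ezh1 rescue peak, and 54.1% and 78.5% an Ezh2 rescue peak. At 1500 bp or more the Ezh1 shares were 81.0% of 79 and 99.6% of 926, and the Ezh2 shares 81.0% and 97.9%. The 2 wild-type replicates shared a median of 72.7% of a region's width here, against 69.0% in the shared regions. Both sets were kept only where the replicates each had a peak, so this does not measure how well the lists agree. The lists held 18284 and 13417 peaks in all and gave 3936 autosomal regions found in both.

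Many of the 622 regions lay within some kb of an experiment 1 wild-type peak. The 2 lists of such peaks were long, with 82566 and 82407 peaks. Distances of other autosomal positions from these peaks were not computed, so closeness is not read as a trait of the 622 regions. The nearest experiment 1 wild-type peak was at a median of 3613.5 bp (interquartile range 977 to 14697). It was under 1 kb away for 160 regions (25.7%), under 5 kb for 56.3% and under 10 kb for 69.1%, while 192 regions lay 10 kb or more from any such peak. Experiment 1 peaks flanked 20.4% of the regions on both sides within 5 kb. The share with an Ezh1 rescue peak was 89.4% under 1 kb, 81.9% from 1 kb to 10 kb and 61.5% at 10 kb or more. For the Ezh2 rescue the shares were 77.5%, 64.1% and 53.6%, in the same order. Regions with no rescue peak made up 4.38%, 11.5% and 28.1% of the 3 distance classes. These differences between distance classes were not tested.

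**Figure D2:**
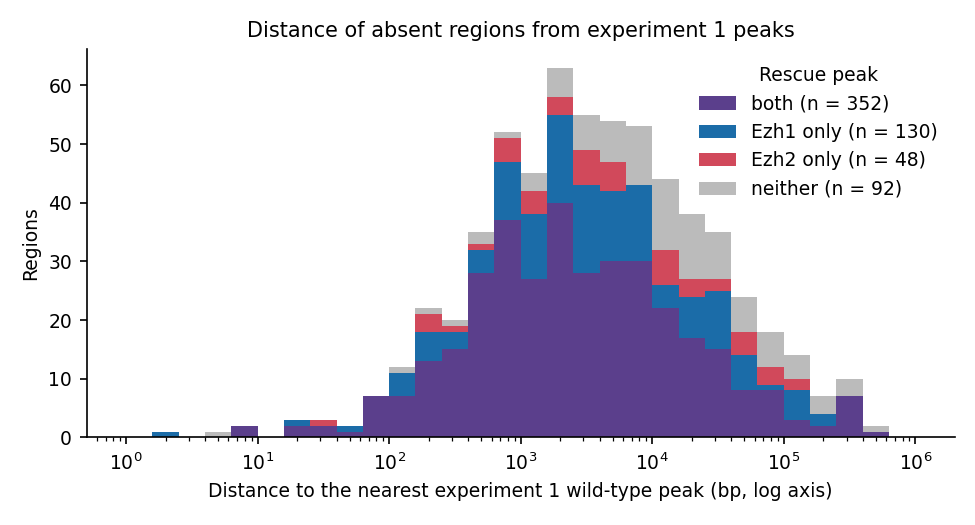
Number of the 622 regions by distance to the nearest experiment 1 wild-type peak (bp, log axis), stacked by the rescue in which they carried a peak. The class from 1 kb to 10 kb is the largest, with 270 regions, and the 92 regions with no rescue peak (grey) take a growing share beyond 10 kb.

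A few regions lay close to the edge of the rule. Just inside it, regions near Zmynd11 and Ica1l lay 2 and 6 bp from an experiment 1 wild-type peak, and a region in Rnf157, at the promoter of Foxj1, lay 8 bp from one. Just outside it, regions in Gm20532 and near Irx3 overlapped one by 4 bp each, and a region near Cecr5 by 5 bp. The median shared region was 100% under such peaks, and 31 shared regions (0.935%) overlapped one by under 100 bp. Of the 622 regions, 19 (3.05%) were under 100 bp from one. At the other end, the 5 most isolated regions lay between 319892 and 564682 bp from any experiment 1 wild-type peak. They were nearest to Rnd3, Smyd3, Fgfr2, Trps1 and Fgf12, and the region in the methyltransferase gene Smyd3 was the only one of the 5 with a rescue peak, covered at 100% by the Ezh1 and 78.6% by the Ezh2 rescue.

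Plxdc1, which encodes a transmembrane protein with a plexin domain found in tumour blood vessels, held more of the unique-sequence regions than any other gene. It spans chr11:97784552-97847758 on the minus strand (ENSMUSG00000017417.8). There were 10 regions along 55800 bp of it, from the promoter into the distal introns, and no shared region among them. Experiment 2 wild-type peaks covered 17400 bp of the gene in replicate 1, in 12 peaks, and 20700 bp in replicate 2, in 13 peaks. Experiment 1 wild-type peaks covered 311 bp in replicate 1 and none in replicate 2, and no knockout library of either experiment had a peak in the gene. The Ezh1 rescue had 2 peaks there covering 1750 bp, and the Ezh2 rescue 7 peaks covering 6350 bp.

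The 10 Plxdc1 regions were unevenly covered by the rescues. The widest of all 622 regions, chr11:97836301-97841100, is an exon-overlapping stretch under 4550 bp of peak in wild-type replicate 1 and 4750 bp in replicate 2. The Ezh1 rescue covered 900 bp of it and the Ezh2 rescue 1700 bp. The promoter region, chr11:97845401-97847750, was under 1950 and 2350 bp of peak in the wild-type replicates, 950 bp in the Ezh2 rescue and none in the Ezh1 rescue. A further region, chr11:97814351-97817200, was under 1950 and 2800 bp in the wild type and 900 bp in the Ezh2 rescue alone. Of the 10, 2 had peaks in both rescues, 2 in the Ezh2 rescue only and 6 in neither. At Plxdc1 peaks covered more of the gene in both wild-type replicates of experiment 2 than in either rescue. The rule picked these regions by the wild-type peaks of both experiments, and Plxdc1 was named for holding many of them. Neither the contrast between the 2 experiments nor that between the experiment 2 wild type and the rescues is therefore a finding.

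**Figure D3:**
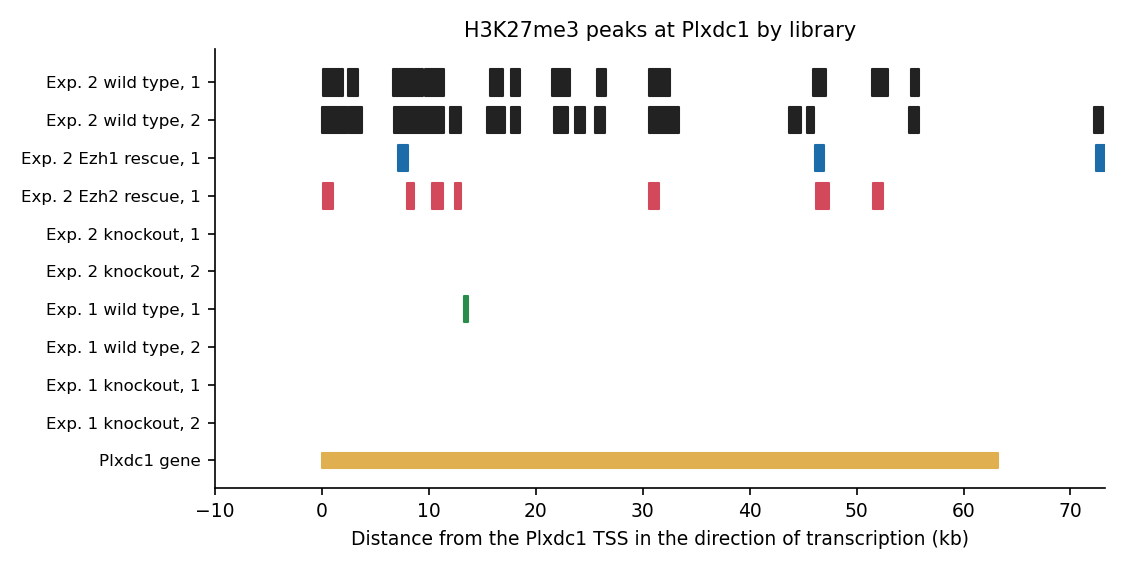
Peaks of each library along Plxdc1, by distance from its TSS in kb in the direction of transcription, with the gene as the lowest bar. The 2 experiment 2 wild-type lists hold 12 and 13 peaks in the gene, the Ezh1 rescue 2, the Ezh2 rescue 7, experiment 1 wild type 1 peak in 1 of 2 libraries, and the knockouts none.

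Elsewhere the regions were mostly single. Joined when under 50 kb apart, they formed 504 groups, 436 of them of 1 region, and 7 loci held 4 or more. At Nfatc2, a calcium-regulated transcription factor, 6 regions lay along 81950 bp of chromosome 2. Wild-type peaks covered 14.3% and 9.58% of that locus in experiment 2 and 2.86% and 0.977% in experiment 1, while the Ezh1 rescue covered 56.5% and the Ezh2 rescue 20.1%. At Sik1, a salt-inducible kinase, the values over 77000 bp were 9.42% and 7.79% in experiment 2 and 11.7% and 1.75% in experiment 1, with 45.1% and 19.5% in the Ezh1 and Ezh2 rescues. Intergenic loci with 4 regions each lay 30659 bp from Rxra, a retinoid X receptor gene, and 8333 bp from Egfl7, a secreted endothelial factor. The Ezh1 rescue covered more of the locus than the wild type at each of the 7 except Plxdc1.

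**Figure D4:**
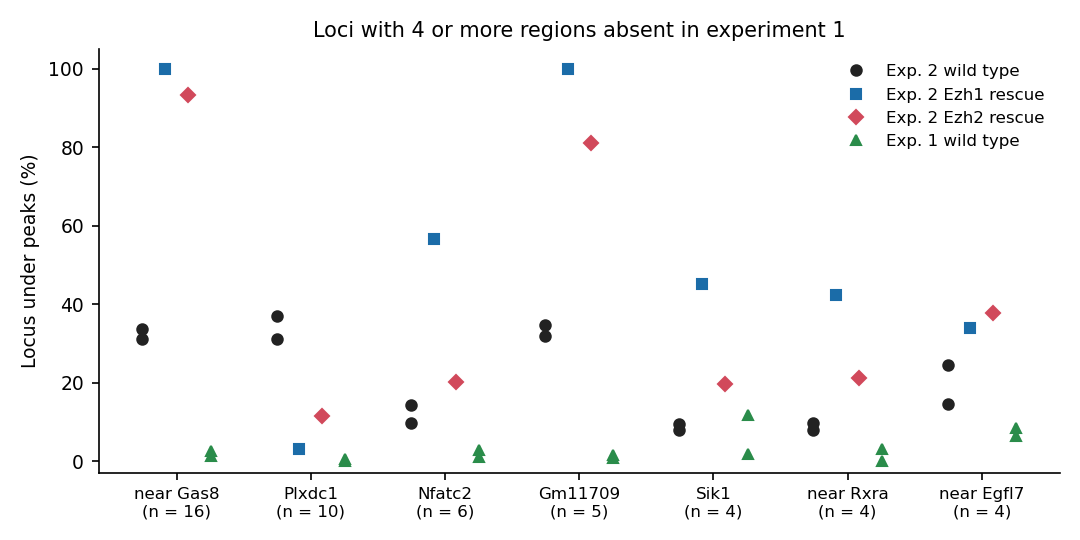
Percent of each of the 7 loci with 4 or more regions that lay under peaks, with 1 point per wild-type or rescue library (the knockout libraries, at 0 throughout, are not drawn) and the number of regions in parentheses. Experiment 1 wild type (green) is the lowest of these at each locus other than Sik1, which follows in part from the rule that chose the regions. Plxdc1 is the locus where both rescues lie below the experiment 2 wild type, whose peaks the rule required.

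The remaining 2 loci consist of repeated sequence. In the first, chr8:126063751-126147700, 16 regions lay in an array 3328 bp from Gas8, a gene of motile cilia, inside the very long gene model Gm20388. Wild-type peaks covered 33.6% and 31.1% of it in experiment 2 and 1.19% and 2.61% in experiment 1. The Ezh1 rescue covered 100% and the Ezh2 rescue 93.4%. In the second, 5 regions lay along 23350 bp of chromosome 11 at Gm11709, Gm11710 and Gm11711, with 31.9% and 34.7% covered in experiment 2, 0.642% and 1.63% in experiment 1, and 100% and 81.2% in the rescues.

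Repeated sequence made up a larger share of the 622 regions than of the shared ones, a difference that was not tested. In 41 of them (6.59%) more than 50% of the 75-base words, the read length of experiment 1, occurred elsewhere in the genome as well. This was so for 17 of the 3314 shared regions (0.513%). With 100-base words, the read length of experiment 2, the shares were 6.27% and 0.332%. Of the 41 regions, 21 lay in the 2 repeated loci, and others lay at Gm2792, at H60b, which encodes a ligand of a natural killer cell receptor, and at H2-Q7 and H2-Q6. Gm2792 held 5 regions of the 622 and H60b 3, and repeated words made up more than 50% of 4 and of 3 of these. Peaks of both rescues covered 37 of the 41, and none of the 41 lacked a rescue peak. The study's methods describe unique mapping for experiment 1 and, in a passage on both instruments, 1 reported location for reads with several hits. Elsewhere they call nearly all experiment 2 reads uniquely mapped, so how such reads were treated there is not settled. The part of mapping in the absence of these regions was not tested, and reads from the copies of an array cannot be assigned to 1 of them. Without the 41, the shares under an Ezh1, an Ezh2 and both rescues were 76.2%, 62.1% and 54.2% of 581 regions.

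The widest regions beside Plxdc1 were otherwise covered by both rescues. They were in the Gm20388 array (2900 bp), near E030010N08Rik (2700 bp), and in Rhbdf2, an inactive rhomboid, and Scube3, a secreted glycoprotein (2650 bp each). Slit3, the guidance ligand, followed with 2600 bp, and a region near Rtn4r, the Nogo receptor, with 2500 bp. Regions in H60b, in the chemerin receptor gene Cmklr1 and near the polarity gene Crb2 tied at 2400 bp. In Slit3 there were 3 regions, 2 under peaks of both rescues and 1 under an Ezh1 rescue peak only. Wild-type replicates could differ at these places, as at Scube3, where replicate 1 covered 600 bp and replicate 2 2650 bp.

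Promoters, defined as windows reaching 2500 bp up and downstream of the TSS, held 74 of the regions (11.9%, against 14.8% of all 3936). Exons held 67 (10.8%, against 432 of all 3936), introns 139 (22.3%, against 23.6%) and intergenic sequence 342 (55.0%, against 50.7%). Without the gene model Gm20388 the intronic share was 19.0%, the difference then being intergenic. The TSS was at a median of 23798 bp, against 20037 bp for the shared regions. Of the 74 promoter regions, 39 had a peak in both rescues, 11 in the Ezh1 rescue only, 9 in the Ezh2 rescue only and 15 in neither.

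In all, 78 of 21418 autosomal protein-coding genes had one of the regions at the promoter (0.364%). Of the 78, 30 (38.5%) also had an experiment 1 wild-type peak elsewhere in the same promoter window, against 25.5% of all genes. No experiment 1 wild-type peak lay in the promoter or the body of 39 of them. The region lay in the body of 194 genes (0.906%), and 144 of these (74.2%) had an experiment 1 wild-type peak elsewhere in the body, against 26.5% of all genes. Genes with a region in the body were long, with a median of 50456 bp against 15535 bp for all genes, and longer genes have more room for a peak of any kind.

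The widest promoter regions after Plxdc1 fell at genes of varied roles. Cxcr7, an atypical chemokine receptor, had regions at chr1:92099151-92101300 and chr1:92102051-92104150. The first was under 850 and 2150 bp of wild-type peak and the second under 1100 and 1850 bp, and both rescues covered at least 90.5% of each. Another region, chr1:92106701-92109000, lay in its intron. Slc6a7, a proline transporter of brain, had 2100 and 1600 bp of wild-type peak, 1100 bp in the Ezh2 rescue and none in the Ezh1 rescue. At Slc9a3r2, a scaffold protein, the wild-type replicates had 600 and 1950 bp, and the Ezh2 rescue alone covered the region at 100%. Mllt6 had 1850 and 1600 bp in the wild type, with 1650 bp in the Ezh1 and 1450 bp in the Ezh2 rescue. Ppp1r1b, a phosphatase inhibitor of dopamine-responsive neurons, had 1500 and 1250 bp in the wild type and 1000 bp in the Ezh1 rescue only. Krt13, a keratin of stratified epithelium, had 1800 and 750 bp in the wild type and no rescue peak, and its region lay 145 bp from an experiment 1 wild-type peak. Gm11711 and X99384 completed the 10 and were covered at 100% by both rescues.

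The regions did not fall at the promoters of the lists of developmental and reference genes. Of 357 autosomal genes in 10 lists, 0 had one of the regions at the promoter, against 0.364% of all protein-coding genes. Shared regions were at the promoters of 34 of the 357, against 2.26% of all protein-coding genes, among them 14 of 39 HOX genes, 4 of 55 neural transcription factors, 4 of 55 mesodermal and endodermal ones and 4 of 51 secreted signals. The fibroblast list, 24 genes, and the housekeeping list, 27 genes, had 0 with either kind of region. At a background of 0.364%, a count of 0 in lists of this size differs little from it. Experiment 1 wild-type peaks lay in the promoter windows of 45 of the 55 neural factors and 25 of the 39 HOX genes. They lay at 0 of the 24 fibroblast and 1 of the 27 housekeeping genes, against 25.5% of all genes. The rule left out regions that overlapped such a peak, so the 0 was partly set by the choice of regions. In the body only, a region was found in Slit3, of the secreted signals, and in Phc2, a subunit of the other Polycomb complex, where a 1300 bp region was under 800 and 1300 bp of wild-type peak.

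Peaks of the knockouts were rare over the regions. An experiment 1 knockout peak overlapped 14 of the 622 (2.25%, against 2.41% of all 3936), 5 in replicate 1 and 12 in replicate 2, with 3 in both. Of the 14, 7 lay on chromosome 5, which held 54 of the 622. Among all 3936 regions 95 had such a peak, and their share on chromosome 5 is not given here. The count is therefore not read as a trait of the 622 regions. The 2 experiment 2 knockout lists overlapped 0 and 2 of the regions (0.322%, against 1.88% of all). One of the 2, chr1:78569401-78571100, was 34652 bp from Mogat1, a monoacylglycerol acyltransferase gene. It was under 900 bp of knockout peak, 1650 and 1700 bp of wild-type peak and 1700 bp in each rescue. The other, chr19:41212901-41213800, lay in an intron of Tll2, a tolloid-like protease gene, under 550 bp of knockout peak, 650 and 900 bp of wild-type peak and 900 bp of Ezh1 rescue peak. The experiment 2 knockout lists held 29 and 382 peaks in all. The lists hold no RNA and no signal, so neither the loss of Ezh2 nor fibroblast identity could be checked in them.

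In base composition the 622 regions resembled the other experiment 2 regions more than those of experiment 1. Their median GC content was 49.5% (interquartile range 46.5 to 52.3%), against 48.7% in the shared regions, 44.6% in the 45953 autosomal experiment 1 wild-type regions of both lists and 41.9% in the autosomal genome. By rescue outcome it was 50.2% for regions in both rescues, 48.6% for the Ezh1 rescue only, 48.7% for the Ezh2 rescue only and 48.1% for neither. The observed-to-expected CpG ratio was at a median of 0.183, against 0.189 in the shared regions. A CpG-rich window, 200 bp with at least 50% GC and a ratio of at least 0.6, was found in 78 regions (12.5%) and in 13.5% of the shared ones.

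**Figure D5:**
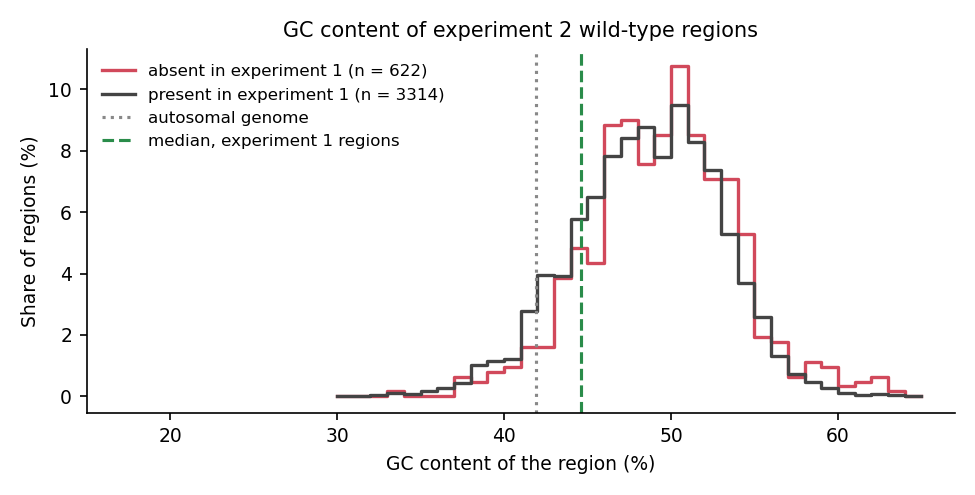
Distribution of GC content (percent, in bins of 1 point) for the 622 absent and 3314 shared regions of experiment 2, as the share of each set. Their medians, 49.5% and 48.7%, both lie above the median of experiment 1 wild-type regions (44.6%, dashed) and the autosomal genome (41.9%, dotted).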

How the data were processed

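The 10 lists of H3K27me3 peaks from ChIP-seq were analysed, and the 2 inputs, which have no list, are not analysed here. The authors mapped reads to mm9, removed duplicates, down-sampled, scaled the knockout and Ezh1 rescue conditions by coefficients and called peaks in each sample separately. Tools listed in the submitters' processing notes are MACS2 2.0.10, HOMER 3.17, SAMtools, Bowtie2 2.1.0 and Bowtie 0.12.8. In the deposited lists the authors give chromosome, start and end, but no score, signal or p-value, so depth could not be checked in them. The methods state a common read total to which mapped reads were down-sampled. All experiment 2 peak ends fall on a 50 bp grid, with a minimum width of 550 bp. Positions are 1-based.

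The regions and gene lists were chosen with earlier results of these data known. Overlap meant 1 bp. Groups followed the labels. Gene positions are from GENCODE's mm9 annotation. The reference is not soft-masked, so the planned repeat share was replaced by the share of 75- and 100-base words found more than once in the genome on either strand. Named were the 10 widest regions (11 with a tie) and 10 widest promoter regions, list genes at promoters, regions under experiment 2 knockout peaks, the 7 genes with most regions (3 or more, ties at 2 left out), 3 regions on each side of the rule's edge, the 5 farthest, and those printed. Other regions named were chosen after their values were seen.

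No test was run: regions are not replicates. Intervals are 95% Wilson intervals. Other definitions, overlaps, promoter windows and left-out libraries were tried. The overlap and word-counting code gave 0 mismatches on 227 and 8 simulated comparisons. Python 3.11.15, NumPy 2.4.6, pandas 2.3.3, SciPy 1.17.1, numba 0.67.0, pysam 0.24.0 and matplotlib 3.10.9 were used.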

Additional observations from a re-analysis of the deposited data

How the results depend on the processing

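Of 103 recomputed values, 65 stayed within the interval of the reported value (for the number of regions, within 1.5 times) and 38 moved further. With no experiment 1 wild-type peak within 1000 bp, the shares under an Ezh1, an Ezh2 and both rescues were 73.4%, 59.7% and 51.5%. With none within 10000 bp, 192 regions remained, with 61.5%, 53.6% and 43.2%, and 0 had an experiment 1 knockout peak. Where only experiment 1 regions of both lists excluded, the Ezh1 and both-rescue shares were 82.8% and 61.6%. The 319 regions of at least 1000 bp had 82.1%, 74.0% and 66.5%, and a median GC of 50.4%. With at least 50% of the region covered, 1.45% had an experiment 1 knockout peak. At an overlap of 1 bp, 0.482% had one in both knockout lists. The promoter share was 6.59% with 1000 bp, 18.5% with 5000 bp and 18.6% with every transcript start. The intronic share without Gm20388 was 19.0%. Leaving out a library, the number of regions was between 777 and 4569, the Ezh1 share between 62.9% and 82.2%, the Ezh2 share between 36.7% and 68.0%, and that of both rescues between 30.7% and 61.7%. The knockout share was then between 0.804% and 3.57%, the promoter share between 7.22% and 12.6%, and the median GC between 47.2% and 49.6%. The highest number of regions and the lowest rescue shares, promoter share and GC came without experiment 2 wild-type replicate 2. The cause was not tested. The alternatives without repeated sequence, Plxdc1 or Gm20388 were chosen after seeing the data, and the first 2 left all 7 results within their intervals (581 and 612 regions). No paired analysis was possible because the results come from no test. The lists hold no signal, so depth could not be checked and a missing peak does not show that the mark is absent.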

Other observations

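The share of experiment 2 wild-type regions that were absent in experiment 1 was between 9.38% (chromosome 9, 15 regions) and 25.8% (chromosome 18, 16 regions) over the 19 autosomes. Chromosomes 11, 2 and 1 held the most, with 87, 77 and 75 regions. These were 14.6%, 15.1% and 16.0% of their experiment 2 regions, close to the 15.8% over all autosomes. A run of at least 10 CA or TG dinucleotides was in 12.2% of the absent and 13.2% of the shared regions, and a run of GA or TC in 4.66% and 6.61%. These shares are given as values, and no test was run on them.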
